A study of Mus musculus with 4 samples.

Results

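The Kruppel-like factor genes Klf2, Klf3, Klf4, Klf6 and Klf13 were followed through single-cell RNA profiles of cells washed from mouse airspaces. They are 5 of the 13838 genes in the deposited matrix of UMI counts, and all 5 were found there by symbol. They were chosen by name, with earlier results of these cells in view, so their levels across cell types and libraries are given as a description and carry no test. The measure was the level of each gene, its summed UMIs as counts per 1e+06 UMIs of the same cells (CPM), in 17 refined clusters named by the authors and in 4 libraries.

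All animals were C57BL/6 mice, and their age was not given in the sources used here. The HDM+APM mice breathed air with Afghanistan particulate matter (APM) at 5 mg/m3 for 6 hours on each of 12 days, and then took 10 µg of house dust mite (HDM), an allergen, through the nose. The HDM mice breathed filtered air and took the same HDM dose, the APM mice breathed APM and took saline, and the control mice breathed filtered air and took saline. HDM or saline was given on days 22 and 29 and again on days 36, 37 and 38, starting 9 days after the last APM exposure, and cells were taken on day 39. Each group is 1 library made from 7 pooled mice, so there is no replicate error, no p-value is given, and every interval below is a 95% interval that covers counting error only.

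Kruppel-like factors are zinc finger proteins that bind CACCC and GC-rich elements in promoters, and different members activate or repress. Klf2 is known for holding lymphocytes in a quiescent, recirculating state and for restraining NF-kB in myeloid cells, and Klf4 for monocyte differentiation and for the alternatively activated macrophage programme that follows IL-4. Klf6 is known for promoting inflammatory gene expression in macrophages, Klf3 as a repressor that recruits CtBP, and Klf13 as an activator of the chemokine gene Ccl5 in T cells.

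The genes lie apart in the mouse genome (GENCODE models, build GRCm38, the same assembly as mm10). Klf2 is at chr8:72319033-72321656 on the plus strand with 1 annotated transcript, and Klf4 at chr4:55527143-55532466 on the minus strand with 3. Klf3 is at chr5:64803388-64832901 on the plus strand, Klf6 at chr13:5861482-5870394 on the plus strand and Klf13 at chr7:63886351-63938915 on the minus strand. All 5 are annotated as protein coding. The 250 bases before the RefSeq start (build GRCm38.p6) are shown for Klf2 and Klf4, because both answer to the same MEK5-ERK5-MEF2 cascade in other cell types while their levels here ran in different directions across the clusters. Capitals mark the KLF core CACCC, read on either strand, and matches to the MEF2 consensus. The Klf2 window covers chr8:72318812-72319061 and the Klf4 window chr4:55532476-55532725, each written 5′ to 3′ on the strand of its gene.
Klf2: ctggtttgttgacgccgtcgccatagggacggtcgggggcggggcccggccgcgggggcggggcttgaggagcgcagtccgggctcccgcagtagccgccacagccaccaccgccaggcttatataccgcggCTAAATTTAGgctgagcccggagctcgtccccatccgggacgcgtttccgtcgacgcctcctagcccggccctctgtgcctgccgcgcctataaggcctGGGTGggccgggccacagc
Klf4: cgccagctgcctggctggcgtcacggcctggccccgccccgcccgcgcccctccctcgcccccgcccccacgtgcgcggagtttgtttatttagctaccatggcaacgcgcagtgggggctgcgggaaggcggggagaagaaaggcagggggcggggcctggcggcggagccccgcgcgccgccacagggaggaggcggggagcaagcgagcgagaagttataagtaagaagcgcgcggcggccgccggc
The Klf2 window held 1 MEF2 consensus match, 108 bases before the start, and 1 KLF core, 14 bases before it, on the opposite strand (GGGTG). A MEF2 consensus match was present in 2.92% of 32851 RefSeq promoter windows of the same length and a KLF core in 52.0%. The Klf4 window held neither. GC boxes (GGGCGG on either strand), present in 32.7% of the windows, were found in all 5, with 2 for Klf2, 6 for Klf3, 4 for Klf4, 1 for Klf6 and 3 for Klf13. The Klf3 window had 5 KLF cores, a number reached by 0.667% of the windows, and 1 of the 5 shared bases with a GC box. The Klf6 window had no KLF core and the Klf13 window had 1, which also shared bases with a GC box. The last bases of the Klf2 window lie inside its GENCODE gene model, whose start is set earlier than that of RefSeq.

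The matrix held 9925 cells and 33643423 UMIs, with medians of 1380 to 4780 UMIs per cell in the 4 libraries. In 23 cells the coarse and refined names disagreed, and 9902 cells were used. Of 9883 cell barcodes, 42 occurred in more than 1 library. The names were checked against the 10 leading genes of each cluster by fold. The 308 cells that the authors named classical monocyte had 4 cavity macrophage markers there (Alox15, Prg4, Saa3 and Cd5l). They also had 2 markers of monocyte-derived or interstitial macrophages (C1qc and C1qb) and no monocyte marker, so that name is used below only as the authors' name. All 308 came from the HDM+APM library. Macrophage 8 had 4 markers of monocyte-derived or interstitial macrophages (Mmp12, Ccl8, Arg1 and Apoe) and 1 dendritic cell marker (Ccl17) there. It is kept apart from Macrophages 1 to 7, 9 and 10, which are called the pooled macrophages where they are summed. Of these, Macrophages 1, 4, 5 and 6 had alveolar macrophage markers among their 10 leading genes, and Macrophages 2, 3, 7, 9 and 10 had none. T cells had 3 T cell and 2 NK cell markers, and the cluster named epithelial had 4 epithelial and 4 red blood cell markers.

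Klf2 was high in the cells named classical monocyte and in lymphocytes, and low in the pooled macrophages. Its level was 1276 CPM (interval 1222 to 1332) in the cells named classical monocyte, 909 CPM in B cells 2 and 488 CPM in B cells 1. Granulocyte-like cells had 317 CPM and T cells 306 CPM, a neighbouring pair whose ratio interval included 1. Macrophage 8 had 118 CPM (101 to 138), and the 9 other macrophage clusters ranged between 9.20 CPM in Macrophage 3 and 25.8 CPM in Macrophage 1. Of the 16 neighbouring pairs in this order, 5 had a ratio interval that excluded 1, and these were 5 of the 6 steps that lead down to the epithelial cluster. The step between B cells 2 and B cells 1 was not seen within the HDM+APM library. There B cells 1 had 952 CPM (758 to 1180) in 45 cells and B cells 2 had 918 CPM (879 to 958) in 404. Most B cells 1, 119 of 167, came from the HDM library. The level in the cells named classical monocyte was 74.1 times that of the pooled macrophages (66.9 to 82.3) over all libraries, and 11.2 times within the HDM+APM library alone. After each cell was thinned to 1000 UMIs, a Klf2 UMI was left in 65.6% of the cells named classical monocyte and in 59.2% of HDM+APM B cells 2. The same share was 2.01% in the pooled macrophages of the APM library and 1.85% in those of the control library, cells in which the level was near its lowest. Unthinned, 97.7% of the cells named classical monocyte held a Klf2 UMI at a median depth of 5270 UMIs, and 5.83% of control pooled macrophages did at 3487 UMIs.

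**Figure D1:**
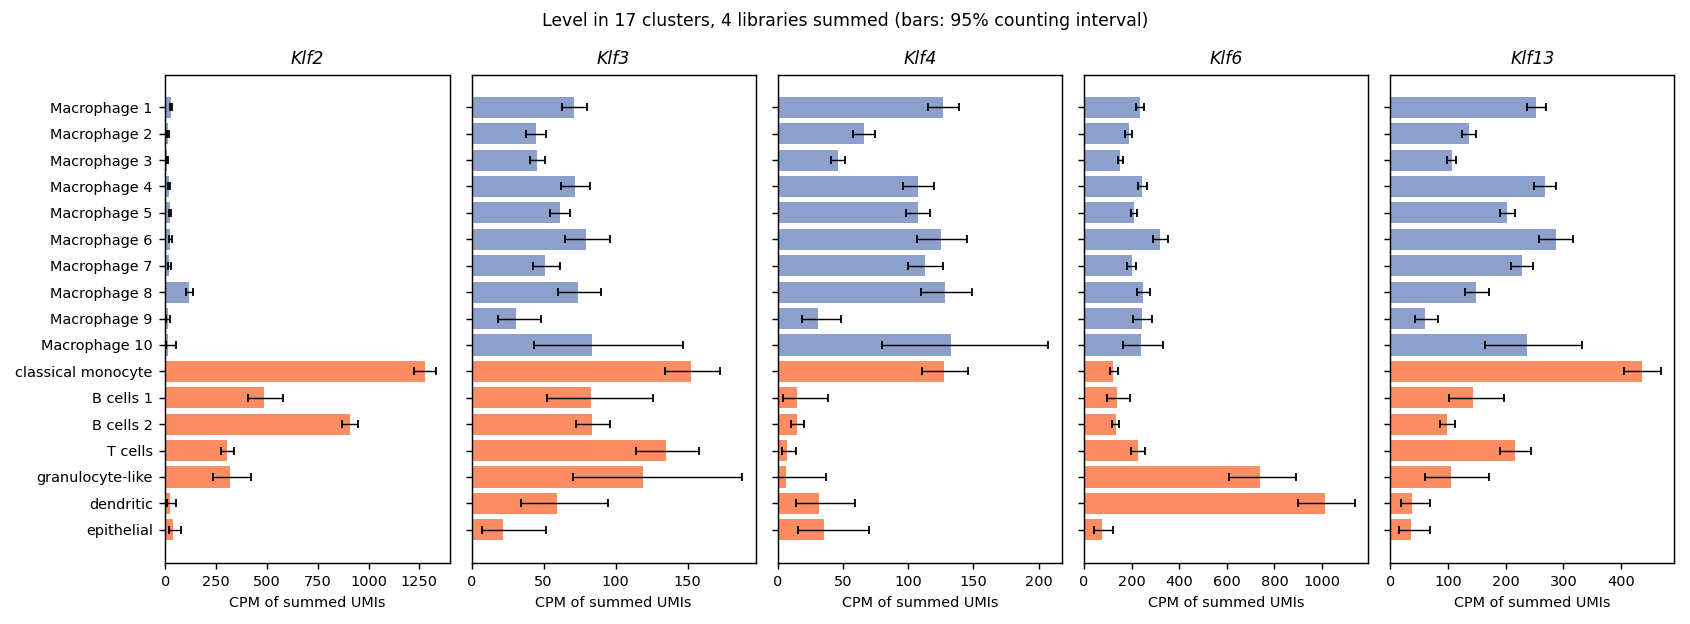
Level of each of the 5 genes (CPM of summed UMIs, x axis of its own per gene, starting at 0) in the 17 clusters, with all 4 libraries summed; lines are 95% counting intervals, blue bars macrophage clusters and orange bars the other clusters. Klf2 and Klf13 stood highest in the cells named classical monocyte (1276 and 435 CPM), Klf6 in dendritic cells (1014 CPM), while Klf4 was spread over macrophage clusters and near 0 in lymphocytes.

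Klf4 had another distribution: it was found across macrophages and in the cells named classical monocyte, and was nearly missing from lymphocytes and granulocyte-like cells. Its level was 133 CPM (80.0 to 207) in Macrophage 10, 128 CPM in Macrophage 8, 127 CPM in the cells named classical monocyte and 127 CPM in Macrophage 1. The 8 highest clusters, down to 107 CPM in Macrophage 4, followed each other without any neighbouring pair whose interval excluded 1. The steps from Macrophage 4 to Macrophage 2 at 65.8 CPM and on to Macrophage 3 at 46.3 CPM were the 2 of 16 that did. Macrophage 9, whose leading genes are the heat shock genes Hspa1a and Hspa1b, had 30.9 CPM on 19 UMIs. B cells 1 and B cells 2 had 15.1 and 14.6 CPM, T cells 7.04 CPM on 8 UMIs and granulocyte-like cells 6.61 CPM on 1 UMI. In thinned cells a Klf4 UMI was left in 0.919% of T cells, 8.72% of pooled macrophages and 10.6% of Macrophage 8 cells. The highest cluster was 1.49 times the pooled macrophages, with an interval of 0.896 to 2.33.

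Klf6 was highest in dendritic cells and granulocyte-like cells. Dendritic cells had 1014 CPM (901 to 1137) on 76 cells, and granulocyte-like cells 740 CPM (610 to 891), and both steps at the top of the order had intervals that excluded 1 over all libraries summed. Within the HDM+APM library the order was the other way, at 856 CPM in 39 granulocyte-like cells and 686 CPM in 10 dendritic cells, with overlapping intervals. Macrophage 6 followed with 321 CPM, and the other macrophage clusters lay between 153 CPM in Macrophage 3 and 248 CPM in Macrophage 8. T cells had 225 CPM, B cells 2 133 CPM and the cells named classical monocyte 124 CPM, so the cluster that led for Klf2 stood 16th of 17 for Klf6. The epithelial cluster had the lowest level, 75.0 CPM on 17 UMIs. Dendritic cells were 4.92 times the pooled macrophages (4.35 to 5.53) over all libraries and 3.78 times within the HDM+APM library, where they were 10 cells. A thinned dendritic cell held a Klf6 UMI in 50.7% of cases, against 20.1% of pooled macrophages and 1.85% of epithelial cells. Of the 207 granulocyte-like cells only 16 reached 1000 UMIs, at a median depth of 692, so their thinned share is not given.

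Klf13 and Klf3 both had their highest level in the cells named classical monocyte, with less contrast than Klf2. Klf13 had 435 CPM there (404 to 469), 286 CPM in Macrophage 6, 267 CPM in Macrophage 4 and 253 CPM in Macrophage 1. It was lower in Macrophage 3 at 106 CPM, Macrophage 9 at 60.2 CPM and dendritic cells at 38.2 CPM. In 4 of 16 neighbouring pairs the interval excluded 1, among them the first. The cells named classical monocyte were 2.32 times the pooled macrophages for Klf13 (2.14 to 2.51) and 2.67 times for Klf3 (2.33 to 3.06). Klf3 had 152 CPM in the cells named classical monocyte, 135 CPM in T cells and 119 CPM in granulocyte-like cells, then a slow decline to 30.9 CPM in Macrophage 9 and 22.1 CPM in the epithelial cluster. No neighbouring pair of Klf3 had an interval that excluded 1.

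The cells named classical monocyte and Macrophage 8 could be set side by side inside the HDM+APM library, where library and mice are shared. Of all genes with at least 20 UMIs in both together, 52% were past 1.5-fold, 20.3% of the genes by being higher in the cells named classical monocyte, and 3 of the 5 genes were past that fold, all higher. Klf2 was 5.62 times as high (4.65 to 6.86), at 1276 CPM in the cells named classical monocyte and 227 CPM in Macrophage 8. Klf13 was 2.76 times as high (2.18 to 3.53), at 435 and 158 CPM in the same order. Klf3 was 1.79 times as high (1.29 to 2.55), at 152 and 85.1 CPM. The ratios of Klf4, 0.817 (0.626 to 1.075), and Klf6, 0.727 (0.561 to 0.9495), were not past 1.5-fold.

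Across the 17 clusters, log2 levels (CPM plus 10) of Klf2 ran with those of Klf3 (Pearson r = 0.68) and against those of Klf4 (r = -0.45). Klf13 ran with Klf3 (r = 0.64) and with Klf4 (r = 0.55), and Klf6 had r between -0.17 and 0.24 with the other 4. These are descriptions over clusters that share libraries and depth. Among 5200 genes that reached 50 CPM in some cluster, the 3 with a pattern most like Klf2 were AB124611 (r = 0.97), Prkcb, which encodes a protein kinase C (r = 0.95), and Rasgrp2, which encodes an exchange factor for Rap (r = 0.95). For Klf4 they were Nfix (r = 0.97), Rin2 (r = 0.96) and Jup (r = 0.94), for Klf6 Cd274, which encodes PD-L1 (r = 0.92), Samsn1 (r = 0.92) and Bcl2a1b (r = 0.91). For Klf3 they were Irf2 (r = 0.92), Mknk2 (r = 0.92) and Gbp7 (r = 0.90), and for Klf13 Sgpp1 (r = 0.95), Ppp2r5a (r = 0.93) and Fkbp5 (r = 0.91).

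Between libraries, Klf2 differed more over all cells than the other genes did. It had 879 CPM in the HDM+APM library, 135 CPM in the HDM library, 23.0 CPM in the APM library and 18.4 CPM in the control library. The cells named classical monocyte and B cells 2 held 4202 of the 4568 Klf2 UMIs of the HDM+APM library, or 92.0%, and 63.5% of its cells. The HDM library had 9 such cells, and the APM and control libraries had 0. The same cells held 81.5% of the Klf13 UMIs, 79.6% of the Klf3 UMIs, 66.6% of the Klf4 UMIs and 63.4% of the Klf6 UMIs of the HDM+APM library. They were deep cells, so their share of all UMIs was larger than their share of cells. The cells named classical monocyte held 1639763 and B cells 2 held 2297729 of the 5194062 UMIs of that library. The Klf3 and Klf13 shares lay a little above that share of UMIs, and the Klf4 and Klf6 shares below it. Over all cells Klf4 had 70.3, 46.3, 91.7 and 85.1 CPM in the HDM+APM, HDM, APM and control libraries, and Klf6 had 155, 248, 239 and 197 CPM in that order. Levels within one cell class are therefore given next, and a ratio only where both libraries had at least 50 cells of the class.

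**Figure D2:**
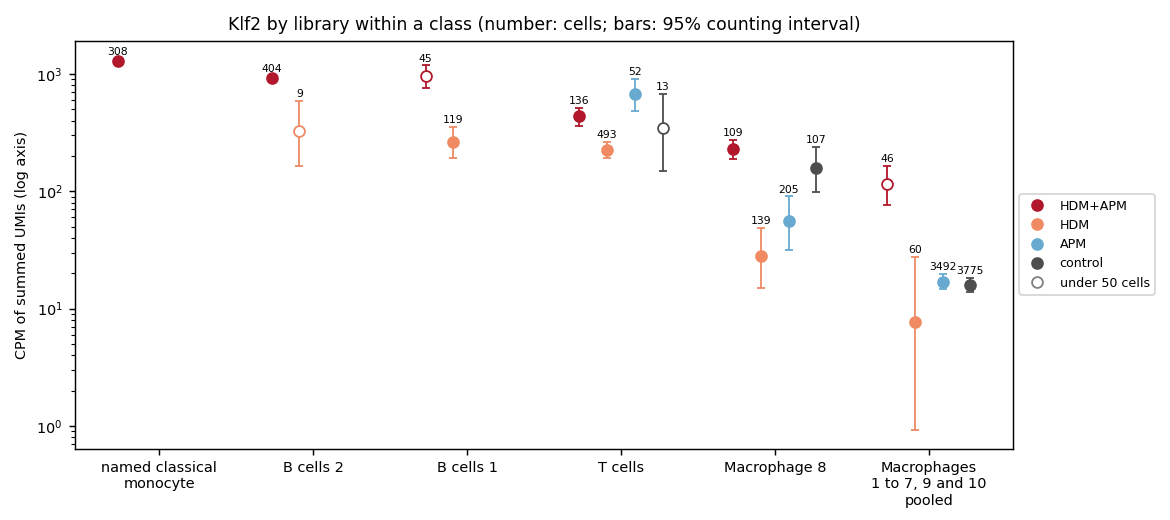
Klf2 level (CPM, log axis) by library within 6 cell classes, with 95% counting intervals and the number of cells above each point; open circles have under 50 cells, and a class with 0 Klf2 UMIs or no cells in a library has no point. HDM+APM points lie above HDM points in each of the 5 classes that have both, and APM T cells (671 CPM) lie above HDM+APM T cells (434 CPM).

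In Macrophage 8, Klf2 was higher in the HDM+APM library than in the HDM and APM libraries, and lower in the HDM and APM libraries than in control. Its level was 227 CPM (187 to 273, 112 UMIs in 109 cells) in HDM+APM, 28.3 CPM (15.1 to 48.4, 13 UMIs in 139 cells) in HDM, 55.6 CPM (31.8 to 90.3, 16 UMIs in 205 cells) in APM and 157 CPM (98.2 to 237, 22 UMIs in 107 cells) in control. The intervals of HDM+APM and control overlapped each other, and both lay above those of HDM and APM. The ratio was 8.02 (4.50 to 15.5) for HDM+APM against HDM and 4.08 (2.41 to 7.39) for HDM+APM against APM. It was 0.181 (0.0836 to 0.375) for HDM against control and 0.355 (0.174 to 0.707) for APM against control. The control value rests on few cells: 3 of the 107 held 14 of the 22 UMIs, and with the mean of per-cell CPM in place of the summed CPM the ratio of HDM against control was 0.534. Thinned to 1000 UMIs per cell, the share of Macrophage 8 cells with a Klf2 UMI was 25.9% in HDM+APM, 4.13% in HDM, 5.30% in APM and 10.6% in control. These shares rest on 85, 121, 132 and 66 cells, since shallower cells were left out. Median depth before thinning was 4849, 3056, 1182 and 1167 UMIs per cell in the same order. Klf2 was also higher in HDM+APM in the pooled macrophages. They had 114 CPM (76.6 to 164) in 46 HDM+APM cells, beside 7.62 CPM in HDM, 16.9 CPM in APM and 15.9 CPM in control.

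Markers of other cells stood beside the high Klf2 level of Macrophage 8 in the HDM+APM library. The control library had 0 B cells and 0 cells named classical monocyte, and the APM library had 3 B cells 1 and none of the others. B cell and cavity macrophage markers thus had little source in APM and control, and their levels there cannot be set against Klf2. All 10 B cell markers had UMIs there in the HDM+APM library, 6 of 10 in HDM and 1 of 10, Cd37, in both APM and control, and their summed level was 365, 78.4, 66.0 and 71.2 CPM in the same order. Ms4a1 and Pax5 were at 0 in Macrophage 8 of HDM, APM and control. All 12 cavity macrophage markers were found in HDM+APM, 3 in HDM, 2 in APM and 4 in control, with sums of 1726, 1054, 247 and 306 CPM, most of it Fn1. Set against the mean level of the whole HDM+APM library, Klf2 in Macrophage 8 stood at 25.8%, the 10 B cell markers at a median of 14.1% (5.97 to 34.7%) and the 12 cavity macrophage markers at a median of 16.7% (9.91 to 53.2%). In the 46 pooled macrophages of that library Klf2 stood at 13%, and the marker medians at 11.6 and 10.2%. With 20% of each library's mean level taken off, the ratio in Macrophage 8 was 38.3 for HDM+APM against HDM and 1.00 for HDM+APM against APM, and with 10% taken off 9.38 and 2.61. The 38.3 divides by a very small remainder and cannot be read as a larger difference. HDM Macrophage 8 had 28.3 CPM on 13 UMIs, and 20% of the HDM library mean of 135 CPM takes off nearly all of it. Within HDM+APM Macrophage 8, 16 cells with at least 3 Klf2 UMIs held 67 of the 112. Red blood cell markers summed to 42.6 CPM in HDM+APM, 6197 CPM in HDM, 21540 CPM in APM and 377 CPM in control Macrophage 8. The part of RNA from other cells in these values was not tested.

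**Figure D3:**
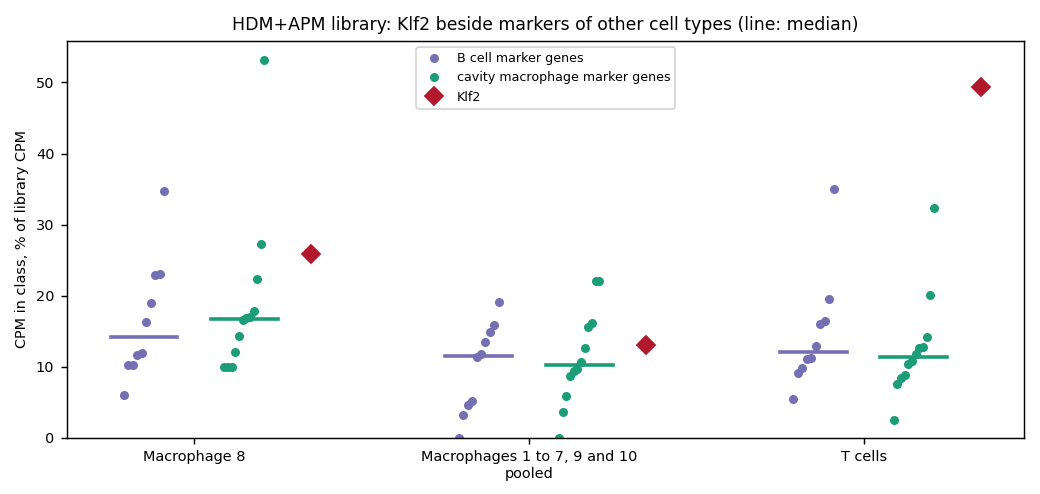
Level in 3 cell classes of the HDM+APM library as a percentage of the mean level of that library (y axis from 0); circles are single marker genes of B cells and cavity macrophages, bars their medians and diamonds Klf2. Klf2 lay inside the range of the markers in Macrophage 8 (25.8%) and in the pooled macrophages (13%), and above all of them in T cells (49.4%).

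In T cells Klf2 was highest in the APM library and lowest in the HDM library. The level was 434 CPM (362 to 516) in 136 HDM+APM cells, 224 CPM (192 to 261) in 493 HDM cells, 671 CPM (484 to 907) in 52 APM cells and 344 CPM (149 to 678) in 13 control cells. The HDM interval lay below those of HDM+APM and APM, which overlapped each other. The ratio was 1.93 (1.52 to 2.45) for HDM+APM against HDM and 0.647 (0.453 to 0.940) for HDM+APM against APM. The second was within 1.5-fold under 3 alternatives: 0.758 as a mean over cells, 0.784 with thinned UMIs and 0.752 without ribosomal and mitochondrial genes in the total. In thinned cells the share with a Klf2 UMI was 34.1% in HDM+APM, 19.3% in HDM and 42.4% in APM. Klf2 in HDM+APM T cells stood at 49.4% of that library's mean level, above each of the 10 B cell markers (5.51 to 35%) and the 12 cavity macrophage markers (2.56 to 32.4%). With 20% of the library mean taken off, the ratio against HDM was 1.31.

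Klf6 in T cells was also highest in APM and lowest in HDM. It had 260 CPM (205 to 325) in HDM+APM, 177 CPM (148 to 210) in HDM, 623 CPM (443 to 852) in APM and 301 CPM (121 to 620) in control. The APM interval lay above those of HDM+APM and HDM. The ratio for HDM+APM against APM was 0.417 (0.280 to 0.630), and for HDM+APM against HDM 1.47 (1.09 to 1.96). Klf13 was near 220 CPM in the larger libraries, with 232 CPM in HDM+APM, 211 CPM in HDM and 224 CPM in APM. Klf3 likewise had 130, 140 and 128 CPM in HDM+APM, HDM and APM T cells. The T cells of the APM library were shallow, at a median of 1129.5 UMIs per cell, beside 1850.5 in HDM+APM and 1327 in HDM. Their NK cell markers summed to 607 CPM, beside 1708 CPM in HDM+APM and 1545 CPM in HDM, and their red blood cell markers to 9172 CPM, beside 71.7 CPM in HDM+APM and 2624 CPM in HDM. The part of these cells in the Klf2 and Klf6 values was not tested.

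Of the trafficking genes named here, Il7r had the same order of libraries as Klf2 in T cells, and S1pr1, Ccr7 and Cd69 had other orders. S1pr1, the receptor that lets T cells leave tissue and a known target of Klf2, was chosen after its values were seen. S1pr1 had 71.7 CPM in HDM+APM, 89.8 CPM in HDM and 0 of 62584 UMIs in APM, the library with the highest Klf2. With a floor of 3 UMIs in place of the 0, S1pr1 was 1.497-fold higher in HDM+APM than in APM, a value that is not a lower bound. Ccr7, the receptor for entry into lymph nodes, had 161 CPM in HDM+APM, 52.8 CPM in HDM and 32.0 CPM in APM. Il7r, the IL-7 receptor gene, had 277, 249.6 and 447 CPM in HDM+APM, HDM and APM, and Cd69, which opposes S1pr1 at the cell surface, 140, 60.7 and 128 CPM. All 7 genes of the list had at least 20 UMIs in both comparisons. For HDM+APM against HDM, 2 were higher and 1 lower at 1.5-fold, with a median log2 ratio of 0.14, and for HDM+APM against APM 3 were higher and 1 lower, with a median of 0.12. Over all genes 30.5 and 46.7% passed that fold in these comparisons, so both counts are near the background.

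B cells 1 gave no ratio, since the HDM+APM library had 45 of them, but the values stood apart. Klf2 had 952 CPM (758 to 1180) in HDM+APM and 265 CPM (194 to 353) in 119 HDM cells. Klf6 had 310 CPM (204 to 450) in HDM+APM and 51.8 CPM (23.7 to 98.3) in HDM. For both genes the intervals did not overlap. Cavity macrophage markers in B cells 1 summed to 608 CPM in HDM+APM and 80.5 CPM in HDM, alveolar macrophage markers to 1605 and 707 CPM, and Klf2 over all cells had 879 and 135 CPM. The part of RNA from other cells in these values was not tested. Klf13 had 149 CPM in HDM+APM and 138 CPM in HDM, with intervals that did. B cells 2 had 918 CPM of Klf2 in 404 HDM+APM cells and 328 CPM (164 to 587) in 9 HDM cells.

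Klf6 in dendritic cells had higher CPM in the libraries without HDM, on small numbers of cells and with much of it in single cells. It had 686 CPM (469 to 968) in 10 HDM+APM cells, 750 CPM (614 to 907) in 38 HDM cells, 1483 CPM (1228 to 1774) in 23 APM cells and 1771 CPM (1234 to 2464) in 5 control cells. Both intervals with HDM lay below both intervals without it, but a single APM cell held 40 of 119 UMIs and a single control cell 14 of 35. The share of thinned cells with a Klf6 UMI did not follow that order, at 60.0% in HDM+APM, 43.2% in HDM, 60.9% in APM and 40.0% in control. In Macrophage 8 Klf6 had 170 CPM (136 to 211) in HDM+APM, 248 CPM (205 to 298) in HDM, 327 CPM (264 to 400) in APM and 363 CPM (270 to 477) in control. The ratio of HDM+APM against APM was 0.521 (0.384 to 0.707), and 0.702 as a mean over cells. In granulocyte-like cells it had 856, 654, 738 and 1358 CPM in HDM+APM, HDM, APM and control, with intervals that all overlapped.

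**Figure D4:**
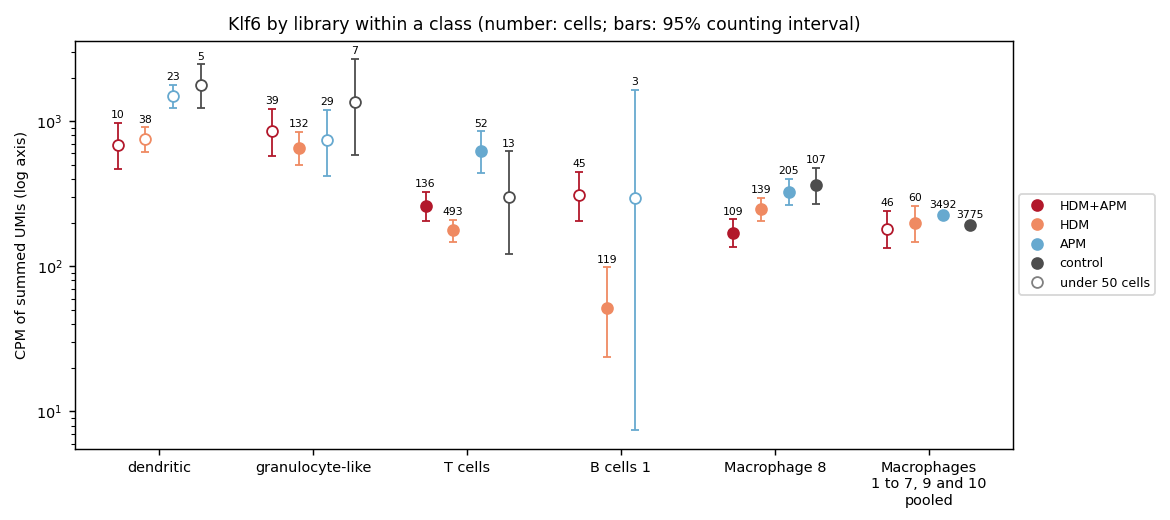
Klf6 level (CPM, log axis) by library within 6 cell classes, with 95% counting intervals and the number of cells above each point; open circles have under 50 cells. In dendritic cells the HDM+APM and HDM points (686 and 750 CPM) lie below the APM and control points (1483 and 1771 CPM), and in T cells the APM point (623 CPM) is the highest.

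For HDM+APM against HDM, 10 ratios could be formed in Macrophage 8 and T cells, 9 had at least 20 UMIs, and 2 were past 1.5-fold, both Klf2 and both higher. Among all genes with 20 UMIs, 27.1% passed that fold in Macrophage 8 (10.8% higher, 16.3% lower) and 30.5% in T cells (12% higher, 18.5% lower). The count for the 5 genes is near that background. For HDM+APM against APM, 9 of 10 ratios had enough UMIs, with 1 higher, Klf2 in Macrophage 8, and 3 lower, namely Klf6 in Macrophage 8 and Klf2 and Klf6 in T cells. The background was 35.2% in Macrophage 8 (17.1% higher, 18.2% lower) and 46.7% in T cells (19.3% higher, 27.4% lower), again near the members' share. Klf4 in T cells had 3 UMIs in HDM+APM, 2 in HDM and 2 in APM, and gave no call.

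For HDM against control, 10 ratios were formed in Macrophage 8 and the pooled macrophages, with 1 higher and 3 lower. The background was 44% in Macrophage 8 (25.3% higher, 18.8% lower) and 46.4% in the pooled macrophages (23.1% lower), so 4 of 10 is a share near it. In Macrophage 8 Klf2 was lower, as given above, Klf13 was lower at 118 CPM in HDM and 185 CPM in control (ratio 0.635, 0.391 to 1.06), and Klf3 was higher at 69.7 CPM in HDM and 35.6 CPM in control (1.96, 0.757 to 6.44, on 5 control UMIs). In the 60 pooled macrophages of HDM, Klf2 had 2 UMIs, or 7.62 CPM, against 15.9 CPM in control (0.478, 0.0576 to 1.75). Only the Klf2 interval in Macrophage 8 excluded 1 among these 4. The other calls ended under an alternative: Klf13 was 0.709 as a mean over cells, Klf3 1.23 with thinned UMIs, and Klf2 in the pooled macrophages 0.748 with the clusters given equal weight. Klf4 in the pooled macrophages had 122 CPM in HDM and 84.9 CPM in control, a ratio of 1.44 (0.978 to 2.04) that became 0.957 with the clusters given equal weight. The HDM clusters weighted in this way were small, from 1 cell in Macrophage 4 to 17 cells in Macrophage 5.

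APM against control offered the deepest comparison, with 3492 and 3775 pooled macrophages. None of the 5 genes passed 1.5-fold there, where 10.8% of all genes did. Klf3 had 65.1 CPM in APM and 51.3 CPM in control (1.27, 1.14 to 1.41), Klf13 211 and 172 CPM (1.23, 1.16 to 1.30), Klf6 226 and 193 CPM (1.17, 1.11 to 1.24) and Klf4 93.2 and 84.9 CPM (1.10, 1.01 to 1.19). Those 4 intervals excluded 1, while that of Klf2, at 16.9 CPM in APM and 15.9 CPM in control, did not (1.06, 0.872 to 1.30). The mix of clusters differed between these libraries: Macrophage 4 had 1029 cells in APM and 21 in control, Macrophage 6 had 688 and 42, and Macrophage 1 had 94 and 1360. With the 9 clusters given equal weight Klf3 was 1.56 and so past 1.5-fold, Klf2 1.42, Klf6 1.06, Klf13 1.01 and Klf4 0.901, so the Klf13 excess was smaller and that of Klf4 changed direction. Equal weight makes small control clusters count as much as large ones. Control Macrophage 10 had only 9 cells, with 7 Klf4 UMIs (277 CPM) and 1 Klf3 UMI. Control Macrophages 4 and 6 had 2 Klf3 UMIs each, and Klf2 had 0 UMIs in control Macrophages 4, 6 and 10.

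Within single clusters, APM against control had 37 ratios with enough UMIs, the pooled macrophages included, and 4 passed 1.5-fold. Klf3 was higher in Macrophage 7, a cycling cluster with Top2a among its 10 leading genes. There Klf3 had 66.3 CPM in APM and 34.8 CPM in control (1.91, 1.28 to 2.90). In that cluster 17.7% of all genes passed the fold and 6.89% were higher. Klf3 was also higher in Macrophage 8, at 79.9 CPM in APM and 35.6 CPM in control on 5 UMIs (2.24, 0.835 to 7.56), where 26.6% passed, 13.3% in each direction. Klf2 was lower in Macrophage 8, as given above. Klf13 was lower in Macrophage 9 at 45.5 CPM in APM and 71.3 CPM in control (0.637, 0.292 to 1.32), where 25.7% passed and 16.4% were lower. With thinned UMIs Klf3 in Macrophage 8 was 1.25 and Klf13 in Macrophage 9 was 0.753, both within 1.5-fold, and Klf13 was 0.702 with the 23 cells kept. In Macrophages 1, 2, 3 and 5, none of the 5 genes passed, against 35.4, 16.2, 22.2 and 17.9% of all genes. Klf4 in Macrophage 5 had 92.4 CPM in APM and 117 CPM in control (0.788, 0.656 to 0.945).

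**Figure D5:**
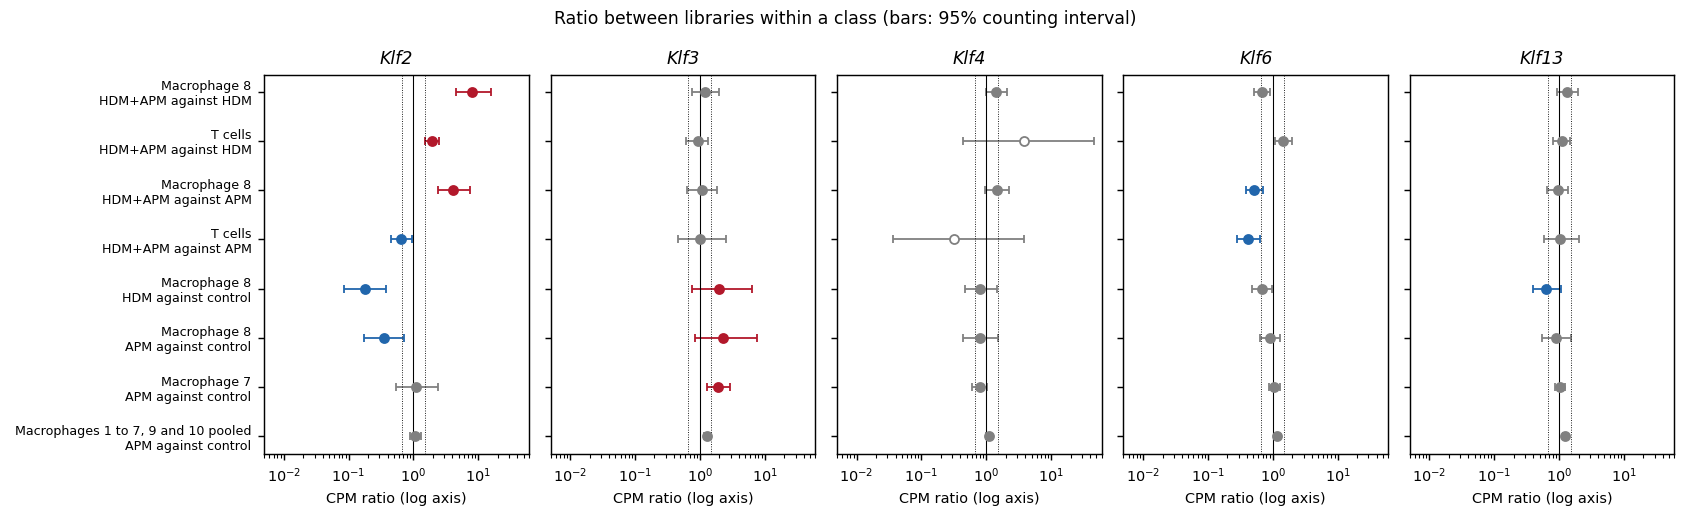
CPM ratio (log axis) of each gene in 8 pairings of class and comparison, first-named library over the second, with 95% counting intervals; red is higher and blue lower at 1.5-fold (dotted lines), grey is neither, and open circles have under 20 UMIs. Klf2 in Macrophage 8 is to the right for HDM+APM (8.02 and 4.08) and to the left for HDM and APM against control (0.181 and 0.355).

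In Macrophage 8, stress genes were more often lower than higher for APM against control, where Klf2 was also lower. Of 18 dissociation and immediate early genes, 13 had enough UMIs for APM against control, and 7 were lower and 1 higher, with a median log2 ratio of -0.77 against 0.01 over all genes, of which 26.6% passed the fold. For HDM against control 6 of 15 were lower and 2 higher, and the median was -0.50 against 0.04, with 44% of all genes past the fold, so that count is near the background. Hspa1a, a heat shock gene, had 19.6 CPM in HDM, 466 CPM in APM and 1303 CPM in control Macrophage 8. For HDM+APM against HDM the list had 5 lower and 1 higher of 15, with a median of -0.13 and 27.1% of all genes past the fold, while Klf2 was higher. The part of handling stress in the Klf2 values was not tested.

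Other members of the family had their highest levels in several clusters. Of 12 other KLF genes, 9 were in the matrix. Klf9, a glucocorticoid-induced factor, was highest in the cells named classical monocyte at 178 CPM (158 to 200), Klf10 in Macrophage 6 at 85.5 CPM, Klf7 in granulocyte-like cells at 72.7 CPM and Klf16 in B cells 1 at 37.8 CPM. Sp factors, which share GC boxes with the family, were present for 4 of 9, with Sp3 highest at 92.5 CPM in granulocyte-like cells, where Sp1 had 66.1 CPM and Sp2 46.3 CPM, and Sp4 highest in T cells at 23.8 CPM. Upstream of Klf2 and Klf4, Mef2c, a MEF2 factor, had 306 CPM in B cells 1, Mef2a 112 CPM in granulocyte-like cells, the ubiquitin ligase gene Smurf1 101 CPM in dendritic cells and Mef2d 79.4 CPM in B cells 1. Of the 11 cofactor genes, Crebbp was highest in granulocyte-like cells at 132 CPM, Ep300 there at 79.3 CPM, and Ctbp1 and Hdac1 in Macrophage 7 at 116 and 77.4 CPM.

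Genes that the members are known to act on had their own patterns. Ccl5, a target of Klf13 in T cells, had 4451 CPM in T cells, and there 3994 CPM in HDM+APM, 4804 CPM in HDM and 3835 CPM in APM, libraries in which the Klf13 intervals of T cells overlapped. Lgals3, a gene repressed by Klf3, was highest in Macrophage 10 at 3210 CPM. Of the 9 genes tied to Klf4 in alternatively activated macrophages, 7 had enough UMIs for HDM against control in Macrophage 8, and 5 were higher and 0 lower (median log2 ratio 1.52, against 0.04 over all genes, of which 25.3% were higher), while Klf4 itself had 109 CPM in HDM and 135 CPM in control there (0.805, 0.466 to 1.45). Chil3 had 33276 CPM in HDM and 5069 CPM in control Macrophage 8, and Mrc1 590 and 199 CPM. A shift was also seen outside Macrophage 8. The alveolar macrophage markers, Chil3 among them, summed to 35508 CPM in HDM and 10009 CPM in control pooled macrophages. Monocyte markers, which share only Chil3 with that list, summed to 31162 and 6745 CPM in the same cells. These sums thus do not show a shift of alveolar macrophage markers other than Chil3. For HDM+APM against HDM in Macrophage 8, 6 of 7 measured NF-kB and inflammatory genes tied to Klf2, Klf4 or Klf6 were lower and 1 higher (median -1.11, against -0.07 over all genes, of which 16.3% were lower). Among them Ccl4 had 34.4 CPM in HDM+APM and 144 CPM in HDM, Ccl3 20.3 and 61.0 CPM, and Nfkbia, an NF-kB inhibitor gene, 182 and 287 CPM. In T cells 3 of 4 were lower and 0 higher (median -2.08, against -0.03 over all genes, of which 18.5% were lower). Ccl4, Ccl3 and Nfkbia were highest in granulocyte-like cells, which were 132 of 994 HDM cells and 39 of 1122 HDM+APM cells. Granulocyte markers summed to 138 CPM in HDM+APM and 327 CPM in HDM Macrophage 8, and to 51.2 and 207 CPM in T cells. The part of RNA from granulocyte-like cells in these values was not tested.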

How the data were processed

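The authors deposited raw UMI counts (whole numbers) for every gene and cell, and a table with the library, coarse type and refined cluster of each cell. The kit was 10x Genomics 3' v2, per the labels. Seurat 2.3.4, Cell Ranger 2.2.0 and mm10 stand in the submitters' processing notes, without roles. The sources used here do not give cell filters or doublet treatment, and no doublet caller was run. UMI sums per cluster and library were scaled to CPM. Intervals are exact at 95% (Poisson for a CPM, conditional binomial for a ratio, Clopper-Pearson for a share). A ratio needs at least 50 cells per library, and a call needs 20 UMIs over both libraries and a fold of 1.5. Thinning drew 1000 UMIs per cell, and shallower cells were left out. Where a group had 0 UMIs, the floor was 3 UMIs over the class. Counts come from transcript 3' ends, so levels are not compared between genes. The ratio and its interval were tested on simulated data. The genes most like a member were the 3 with the highest Pearson r, and up to 4 genes per list were named, by highest CPM. Some results are not reported here. The members and lists were chosen with earlier results of these data known. Python 3.11.15, NumPy 2.4.6, pandas 2.3.3 and SciPy 1.17.1 were used.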

Additional observations from a re-analysis of the deposited data

Results flagged for a closer look

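Klf2 in Macrophage 8 had ratios in opposite directions for the same exposure with and without the other one. For HDM, the ratio was 4.08 where both libraries had APM (HDM+APM against APM) and 0.181 where neither had it (HDM against control). For APM, it was 8.02 where both libraries had HDM (HDM+APM against HDM) and 0.355 where neither had it (APM against control). For HDM+APM against APM, Klf2 was also in opposite directions in 2 cell classes, at 4.08 in Macrophage 8 and 0.647 in T cells. The 4.08 was 1.00 with 20% of the library mean levels subtracted, and the 0.181, for which 3 control cells held 14 of 22 UMIs, was 0.534 as a mean over cells. The 0.647 was within 1.5-fold as a mean over cells (0.758), thinned (0.784) and without ribosomal and mitochondrial genes (0.752). With 1 library per group these differences were not tested.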

How the results depend on the processing

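No paired analysis was possible because each group is 1 library. Of 417 single ratios under the alternatives, 384 stayed inside their own counting interval, 33 left it, and 0 called ratios changed direction. Over all libraries the top cluster against pooled macrophages moved for Klf2 (74.1) to 61.4 when thinned and 92.8 without ribosomal and mitochondrial genes in the total, which also gave 3.34 for Klf3 (2.67) and 2.90 for Klf13 (2.32). Klf13 was 2.14 as a mean over cells. In the HDM+APM library alone, an alternative chosen after seeing the data like the subtraction of library means, Klf2 was 11.2, Klf6 3.78 and Klf13 2.57. Counts of ratios past 1.5-fold moved as follows. HDM against control had 1 lower (not 3) when thinned, and 0 higher (not 1) and 1 lower with 50 CPM added. APM against control had 5 higher (not 2) when thinned, 1 higher with 50 CPM added, and 1 lower (not 2) with 10 or 50 CPM added or with the 23 cells kept, and 4 lower with no UMI minimum. HDM+APM against HDM had 5 higher (not 2) when thinned, and 1 lower (not 0) when thinned or as a mean over cells. HDM+APM against APM had 2 higher (not 1) when thinned, in cells of at least 1000 UMIs, without ribosomal and mitochondrial genes, or with the 23 cells kept, and 2 lower (not 3) when thinned, without ribosomal and mitochondrial genes or with 50 CPM added, 4 with no UMI minimum and 1 as a mean over cells. Thinning leaves fewer UMIs, and the cause of the other changes was not tested. The equal-weight alternative was not run for HDM+APM, which had 46 pooled macrophages.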
